A study of Mus musculus with 12 samples.

Results

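The potassium channel genes of the mouse hypothalamus were taken as every array probe whose gene symbol begins with Kcn, with antisense transcripts left out. That gave 94 genes with 173 probes, among 27308 symbols with 56605 probes on the array. A probe was tested where its signal was well above background, by the scanner software's own flag, on all 3 arrays of at least 1 group. Of the 94 genes, 81 had a tested probe, with 132 tested probes between them. The left-out antisense symbols were Kcnq1ot1, Kcnd3os, Kcnmb4os1 and Kcnmb4os2, of which the last pair ends in os followed by a digit.

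Potassium channels let potassium leave or enter a cell along its electrochemical gradient, and so set the resting potential, end the action potential and limit the rate of firing. Voltage-gated channels open on depolarization, inward rectifiers carry current best near rest and include channels opened by G proteins or by a fall in ATP, tandem-pore channels pass a steady leak, and a further class opens on internal calcium or sodium. In hypothalamic neurons these currents couple hormones, glucose and transmitters to firing.

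Total RNA from the hypothalamus of 12 male mice, labelled as 6 to 7 weeks old, was hybridised to 1-colour Agilent arrays, 1 mouse per array. The paper gives that age for the start of swimming. Daily training then ran for several weeks, so the mice were older when the tissue was taken. The 4 groups of 3 were wild-type control mice (WT), Asmt-knockout control mice (KO), wild-type mice that swam (exercised WT) and Asmt-knockout mice that swam (KE). Asmt codes for the last enzyme of melatonin synthesis. The knockout line was made with CRISPR/Cas9 in C57BL/6 zygotes, carried a germline deletion of 20 bp, and was backcrossed for 3 generations to wild-type littermates. The paper states that C57BL/6J mice already have low Asmt activity and little melatonin from birth. In its serum assay, knockout did not change melatonin significantly. The only Asmt probe was well above background on 0 of 12 arrays, so the genotype labels could not be checked on it. With 3 mice a group, the limma p-values rest on the spread within these groups only, pooled over the 4 groups and drawn toward that of all genes. Without a slide term, that spread includes the shift between KO replicate 3 and the other KO arrays, which lay on another slide. A lower signal from fewer cells of a type cannot be told apart from less RNA per cell.

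The arrays lay on 2 slides, and this bears on every comparison with swimming. Slide 1 held WT replicates 1 to 3 and KO replicates 1 and 2. Slide 2 held KO replicate 3 and all 6 arrays of mice that swam. Over all tested genes the first principal component held 42.6% of the variance and ran from -28.1 to -16.5 on slide 1 and from 11.1 to 23.2 on slide 2. KO and WT can be compared within slide 1, and KE and exercised WT within slide 2. Swimming can be separated from slide only through KO replicate 3, so values for swimming are set beside those from a fit with a slide term. Per array, 61.62% to 67.91% of the 59305 spots were well above background and 0 were saturated.

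The tissue labels were checked on marker genes. All 13 hypothalamic markers were tested, with Hcrt, the orexin gene, the brightest. Signals of different probes do not rank transcripts by abundance. All 9 striatal, 6 thalamic and 7 choroid plexus markers were tested too. Of 7 cortical and hippocampal markers 5 were tested, with Tbr1 the brightest (8.59 to 10.84). Slc17a7 and Emx1 were not detected, and of 5 anterior pituitary markers only Tshb was. Sim1, a transcription factor of the paraventricular nucleus, had a normalized log2 signal of 4.10 to 5.07 on slide 1 and of 6.21 to 7.23 on slide 2, so it followed the slide and not the group in KO.

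Most channel classes were nearly complete in this tissue. Tested genes made up 86.2% of the Kcn genes, against 66.9% of all symbols on the array. Of the voltage-gated pore subunits 36 of 40 were tested, including all 8 Kcnh genes, all 5 Kcnq genes, all 4 Kcnc genes and all 3 Kcnd genes. The auxiliary subunits of voltage-gated channels gave 11 of 13, the inward rectifiers (Kcnj) 13 of 15 and the tandem-pore channels (Kcnk) 10 of 14. All 8 pores of the calcium- or sodium-activated class, Kcnu1 counted among them, were tested. So were 3 of the 4 auxiliary subunits of the BK channel, the large calcium-activated channel. A probe well above background on all 12 arrays was found for 77 genes.

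The 13 genes without a tested probe were Kcna10, Kcne1, Kcne3, Kcng3, Kcng4, Kcnj1, Kcnj15, Kcnk5, Kcnk9, Kcnk15, Kcnk18, Kcnmb3 and Kcnv2. Kcne3, Kcnj1, Kcnk18, Kcnmb3 and Kcnv2 were well above background on 0 arrays. Kcnj1 is the ROMK channel of the kidney tubule, and Kcnv2 is a silent subunit of photoreceptors. A dim probe bounds the signal on this array and does not show that a transcript was absent.

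Kcnq5, the marker gene of the set, codes for a subunit of the M current, the slow potassium current that muscarinic receptors close. Its 3 tested probes gave the widest spread of differences among the probes of any Kcn gene in 4 of the 6 comparisons, all but KE against exercised WT and the interaction, so their sequences are shown. The upstream probe, A_55_P2717258, was drawn from an Ensembl transcript record and lies at chr1:21567995-21568054 (mm9, minus strand, as the array files give it). The probe of the RefSeq transcript, A_66_P122053, lies at chr1:21389067-21389126, and the dim probe, A_66_P128966, at chr1:21447515-21447574. The upstream probe shared a run of 18 bases, in capitals here, with a probe of the antisense transcript Kcnq1ot1 at chr7:150410464-150410523. For this pair bases 31 to 60 of the probe are printed, and for the others bases 1 to 30.
Kcnq5 upstream probe: taataatctGAACAACAAATGCACTAAtaa
Kcnq1ot1 probe: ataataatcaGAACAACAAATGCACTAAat
Kcnq5 RefSeq probe: aggaagttacctaaaacatgtttgccacgt
Kcnq5 dim probe: aagtccagaagagttggagcttcaacgacc
Aligned without gaps, the upstream probe and the Kcnq1ot1 probe were the same at 43 of 59 bases, and at 26 of 29 in the part nearest the 3′ end. Shorter runs were common: 72 of the 173 Kcn probes shared at least 15 bases, on either strand, with a probe of another gene. Few of those runs reached 18 bases.

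At the upstream Kcnq5 probe the normalized log2 signal was 8.87, 8.86 and 8.72 in WT, and 8.72, 8.62 and 9.97 in KO. In exercised WT it was 10.04, 10.03 and 9.79, and in KE 10.59, 10.42 and 10.36. The 5 arrays of slide 1 thus ran from 8.62 to 8.87, and the 7 of slide 2, KO replicate 3 among them, from 9.79 to 10.59. The difference between exercised WT and WT was 1.13 (adjusted p = 0.0908 in limma) and became -0.17 with the slide term. Between KE and KO it was 1.36 ± 0.29 (SE, adjusted p = 0.117 in limma) and 0.49 with the slide term.

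Within slide 2, KE exceeded exercised WT at that probe by 0.51, with no overlap of the arrays (adjusted p = 0.82 in limma, and 0.23 with the slide term). The Kcnq1ot1 probe had 11.26, 11.34 and 11.02 in WT, 11.06, 10.93 and 11.80 in KO, 12.02, 12.03 and 11.92 in exercised WT, and 12.28, 12.22 and 12.12 in KE. Its arrays thus fell in the same 2 sets, split by slide. Whether the Kcnq5 probe also bound the other transcript was not tested.

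The other Kcnq5 probes did not share this pattern. The RefSeq probe stayed between 8.22 and 8.66 on all 12 arrays, and KE and KO differed there by 0.01. The dim probe was well above background on 3 WT, 0 KO, 2 exercised WT and 2 KE arrays, with 4.41 to 4.71 in WT and 3.91 to 4.32 elsewhere. It was thus tested only through WT, where it was brightest, and gives only a bound for KO. The measured means were 4.57 in WT and 4.08 in KO, and WT was at least 1.25-fold higher when each KO array was set no lower than its lowest signal well above background (adjusted p = 0.855 in limma for the measured values). Averaged over the 3 probes, Kcnq5 differed by 0.46 ± 0.10 (SE) between KE and KO, with an adjusted p of 0.126 in limma, and by 0.19 with the slide term. Over the probes well above background on all 12 arrays, which leaves out the dim probe, KE and KO differed by 0.68.

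**Figure D1:**
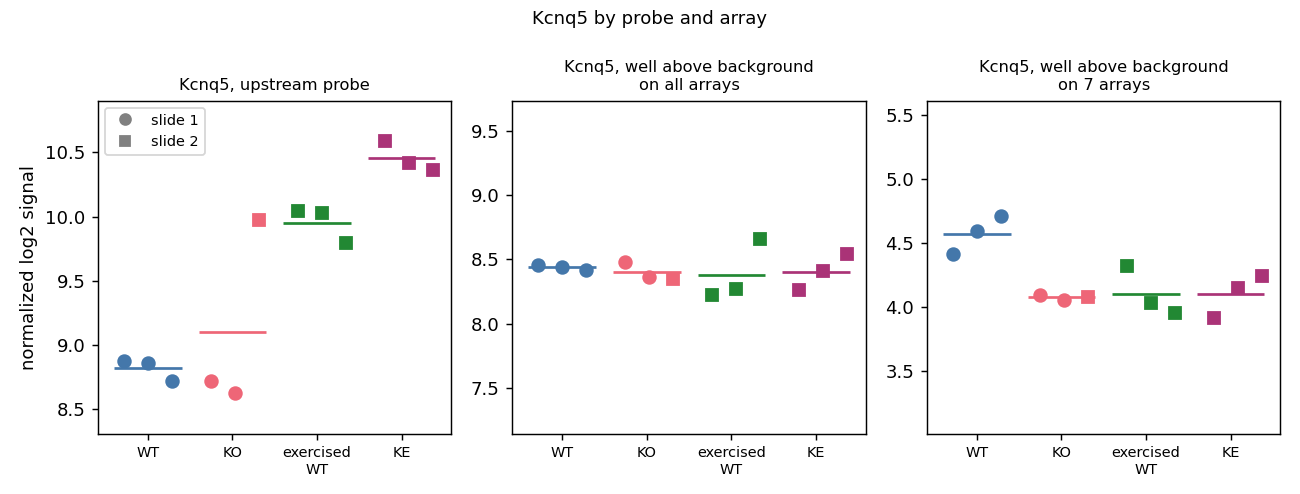
Normalized log2 signal of the 3 tested Kcnq5 probes on each of the 12 arrays, by group, with circles for slide 1, squares for slide 2 and lines at group means (n = 3). The upstream probe lies at 8.62 to 8.87 on slide 1 and at 9.79 to 10.59 on slide 2, and the RefSeq probe stays between 8.22 and 8.66.

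Across the 81 tested genes, no Kcn gene differed at an adjusted p under 0.05 in limma in the 5 comparisons of 2 groups that were made, and none did in the interaction. Of all tested genes 0% did so, save for 0.00547% in KE against WT. The methods' t-test with Benjamini-Hochberg adjustment called 2 Kcn genes in exercised WT against WT (Kcng2 and Kcnh4) and 4 in KE against WT (Kcng2, Kcnh4, Kcnq5 and Kcnd2, an A-type channel named for this call), where it called 1.13% and 8.12% of all genes. Before adjustment it called 8 Kcn genes in KE against KO, where it called 12.2% of all genes. The smallest adjusted p in limma was 0.0701, in KE against WT, for Kcng2. The differences were small for most genes: the 95% interval of the log2 difference lay within a 2-fold change for 78 genes in KO against WT and in KE against KO, 76 in exercised WT against WT, 75 in KE against exercised WT and 77 in KE against WT. Those are 92.6% to 96.3% of the Kcn genes, against 91.9% to 95.2% of all tested genes. In the fit with the slide term they were 78, 73, 70, 76 and 69 genes in the same order, or 85.2% to 96.3%, against 85.7% to 96.0% of all genes. The counts below use an unadjusted p under 0.05 and are set against the percentage of all 18266 tested genes that meets it in the same direction.

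**Figure D2:**
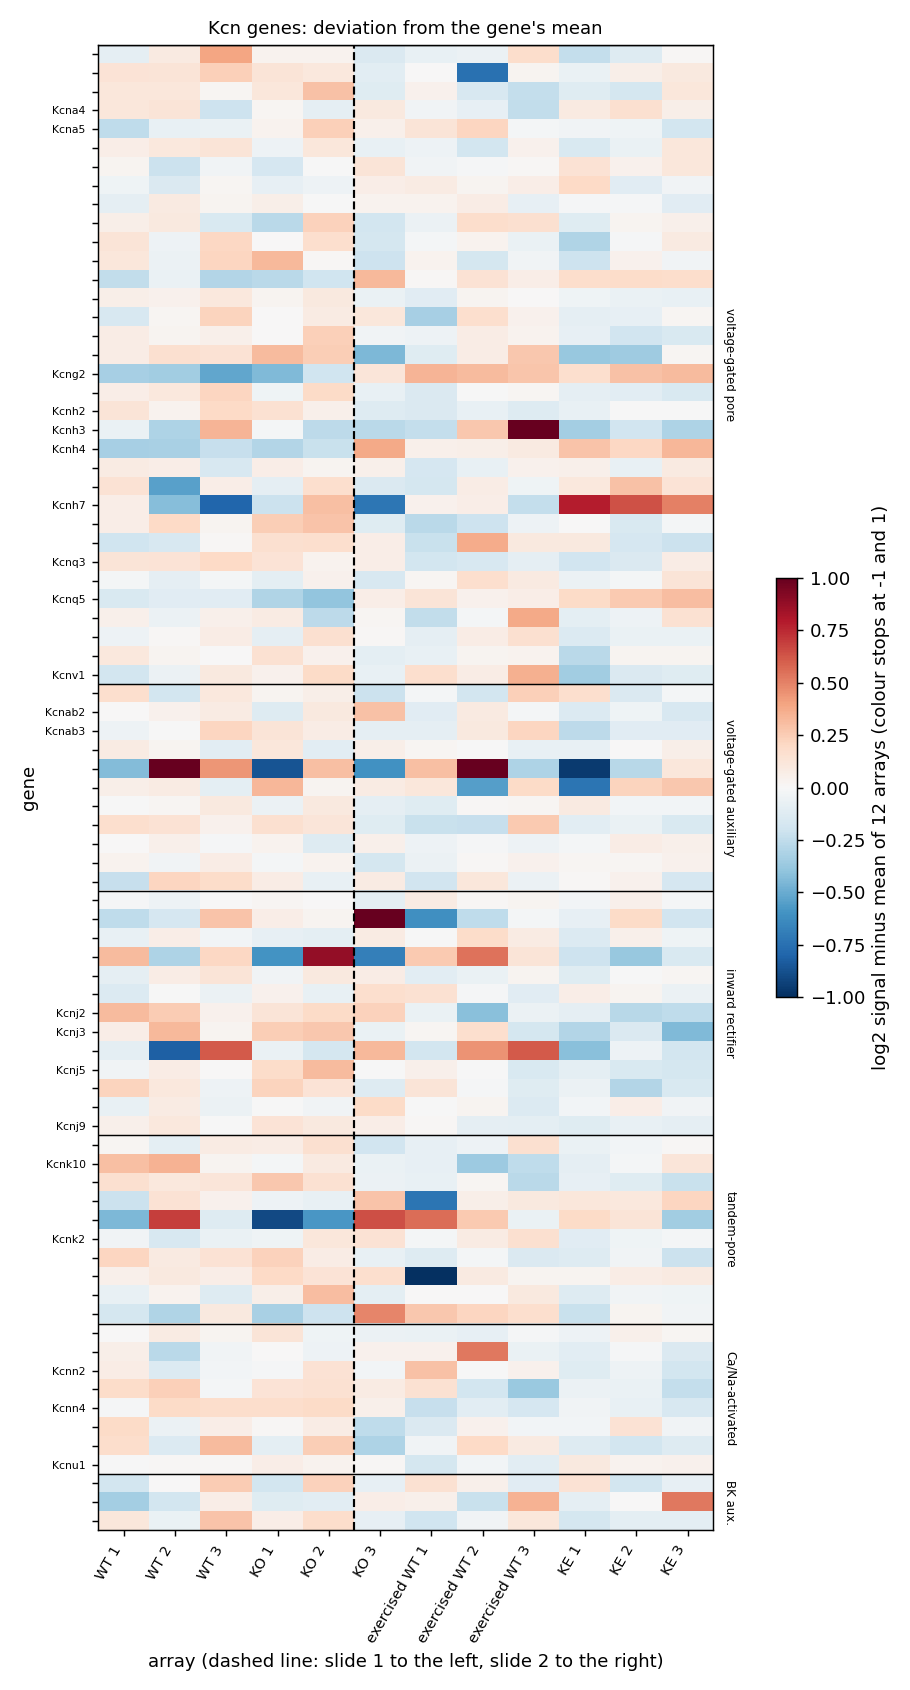
Normalized log2 signal of tested Kcn genes on each array minus the gene's mean over 12 arrays (red above, blue below), with genes ordered by class, names beside those the naming rule selected and a dashed line between the slides. Of the 132 tested Kcn probes, 6.06% were higher and 8.33% lower on every array of slide 2 than on every array of slide 1, against 10.3% and 12.0% of all tested probes.

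Asmt knockout at rest went with little difference in these genes. Kcna5, a Shaker-type delayed rectifier, was higher in KO than in WT by 0.24 ± 0.09 (SE), with 9.18, 9.36 and 9.37 in WT and 9.47, 9.67 and 9.48 in KO. Its groups did not overlap, the adjusted p was 0.85 in limma, and the difference was 0.27 within slide 1. Of the Kcn genes 3.7% were higher without overlap, against 3.9% of all genes. Kcnk2, the leak channel TREK-1, was higher by 0.16, and by 0.12 within slide 1, where its unadjusted p was no longer under 0.05. These were 2 of 81 genes higher and 0 lower, where 2.62% and 2.68% of all genes met the same threshold. Within slide 1, Kcna5 still met it, and so did Kcnq5 (-0.22), Kcnj5 (0.24) and, named for these values, the tandem-pore channels Kcnk6 (0.23) and Kcnk16 (-0.77). The Kcnq5 value is an average of -0.15, -0.02 and -0.50 over its probes, of which the last is the dim probe, well above background on 0 KO arrays. For Kcnq5, Kcnj5, Kcnk6 and Kcnk16 the KO and WT arrays did not overlap within slide 1 but did once KO replicate 3 was counted. Kcnk16 was well above background on 1 WT and 1 KO array only, so both groups lay mostly at background. The median difference was -0.002 for Kcn genes and -0.010 for all genes.

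Between KE and KO, 11 Kcn genes (13.6%) were lower and 4 (4.94%) higher at an unadjusted p under 0.05. The shares of all genes were 12.3% lower and 7.4% higher. Fewer Kcn genes were lower with the slide term, as counted below. The 4 higher were Kcnq5, Kcnh7, Kcng2 (0.44, or 0.15 with the slide term) and Kcnh4 (0.32, or -0.10). Of the 13 inward rectifiers, 12 had a negative difference between KE and KO, as did 59.5% of all genes, with a median of -0.19, against -0.038 for all genes, and 4 had an unadjusted p under 0.05. With the slide term, where KO is represented by 1 array, 11 of 13 were negative, against 51.9% of all genes, and 3 were lower at an unadjusted p under 0.05, against 3.7% (Kcnj2, Kcnj9 and Kcnj11, the last outside the naming rule).

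Of those 4 genes, 3 code for G protein-gated channels of neurons. Kcnj3 (GIRK1) differed by -0.44, Kcnj5 (GIRK4) by -0.30 and Kcnj9 (GIRK3) by -0.19, with adjusted p-values in limma of 0.154, 0.148 and 0.146, and with -0.23, -0.13 and -0.16 with the slide term. Kcnj3 had 7.55, 7.57 and 7.24 in KO and 7.01, 7.16 and 6.86 in KE, so KO replicate 3, on slide 2, lay nearest to KE. Its 2 probes differed by -0.11 and -0.78, and the 3 probes of Kcnj9 by -0.47, -0.06 and -0.05. Kcnj6 (GIRK2), the other channel gene of that kind and named to complete it, differed by -0.24 (adjusted p = 0.258 in limma), or by -0.04 with the slide term. Kcnn4, an intermediate calcium-activated channel, differed by -0.22 (-0.13 with the slide term).

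Kcnj2 codes for Kir2.1, a strong inward rectifier that holds the resting potential. Its signal was 7.62, 7.56 and 7.35 in WT, 7.44, 7.50 and 7.54 in KO, 7.24, 6.89 and 7.25 in exercised WT, and 7.22, 7.03 and 7.05 in KE. All 6 arrays of mice that swam lay below all 6 of controls, KO replicate 3 on slide 2 included. The difference was -0.39 between KE and KO (adjusted p = 0.147 in limma) and -0.38 between exercised WT and WT (0.0992), or -0.44 in each case with the slide term. Its 2 probes differed in size. Between exercised WT and WT, the dimmer probe A_52_P503614 differed by -0.77 and A_55_P2500688 by 0.00, and between KE and KO they differed by -0.58 and -0.21 (-0.69 and -0.18 with the slide term). The dimmer probe was well above background on 3 WT, 3 KO, 1 exercised WT and 2 KE arrays, so it was tested only through the controls, where it was brighter, and the separation of the arrays rests on it. Between KE and KO, 19.8% of Kcn genes were lower without overlap, against 14.7% of all genes. Between exercised WT and WT these shares were 21.0% and 23.4%.

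In wild-type mice, 11 Kcn genes (13.6%) were lower and 5 (6.17%) higher after swimming, against a background of 15.9% and 9.85%. Fewer were lower with the slide term, as counted below. With that term the lowest and highest differences were those of Kcnj11 (-1.21) and Kcnh7 (1.11). Without it, Kcng2, a silent subunit that modifies other voltage-gated channels, had the largest difference. Its signal was 5.33, 5.31 and 5.14 in WT, 5.22, 5.46 and 5.78 in KO, 6.00, 5.98 and 5.94 in exercised WT, and 5.83, 5.95 and 5.98 in KE. KO replicate 3 was the highest array of the controls. The difference between exercised WT and WT was 0.71 (adjusted p = 0.0967 in limma) and 0.28 with the slide term. At its brighter probe, A_66_P109002, the 5 arrays of slide 1 ran from 5.99 to 6.19 and the 7 of slide 2 from 6.98 to 7.13, and the difference fell from 0.98 to 0.02 with the slide term. Its dimmer probe, A_66_P108280, gave 0.45, or 0.53 with the slide term, and was well above background on 1 WT, 2 KO, 3 exercised WT and 3 KE arrays, so it was tested only through the mice that swam.

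Other genes of this comparison moved less or turned with the slide term. Kcnk10, the leak channel TREK-2, differed by -0.46 (adjusted p = 0.0967 in limma; -0.35 with the slide term), and Kcnq3, another subunit of the M current, by -0.30 (-0.28). Kcnn4 differed by -0.29 (-0.15) and Kcnh2, the ERG channel, by -0.24 (-0.02). Kcnh4, an ELK-type channel, was higher by 0.36 and turned to -0.28 with the slide term. Kcnk2 was higher by 0.16 in exercised WT (0.05 with the slide term), and Kcnv1 by 0.25 (0.45 with the slide term). The slide term turned the sign of 37 of 81 genes in exercised WT against WT, and of 28 in KE against KO.

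With the slide term, 4 Kcn genes were higher and 5 lower between KE and KO at an unadjusted p under 0.05, against 4.13% and 3.7% of all genes. Between exercised WT and WT, 5 were higher and 5 lower (2.75% and 3.24% of all genes), and between KE and WT 1 was higher and 5 were lower (2.06% and 2.32%). Between KO and WT, 3 were higher and 2 lower (3.45% and 2.41%), and between KE and exercised WT 5 and 7 (4.87% and 5.2%). The interaction had 3 upward and 9 downward (4.68% and 5.97%). Past the screening criterion were Kcnh7 and Kcnj11 in KE against KO and in exercised WT against WT, and Kcnh7 and Kcnk16 in KE against WT, that is 2 genes each time, against 0.257%, 0.657% and 0.586% of all genes. None of these had an adjusted p under 0.05 in limma. Each of these values rests on KO replicate 3, the only control array on slide 2. Kcnh7 read 3.60 there, below that array's lowest signal well above background, 4.15, and Kcnj11 was high there through its dim probe. Kcnk16 was well above background on 1 WT, 1 KO and 1 KE array, and like Kcnh7 was tested only through mice that swam.

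**Figure D3:**
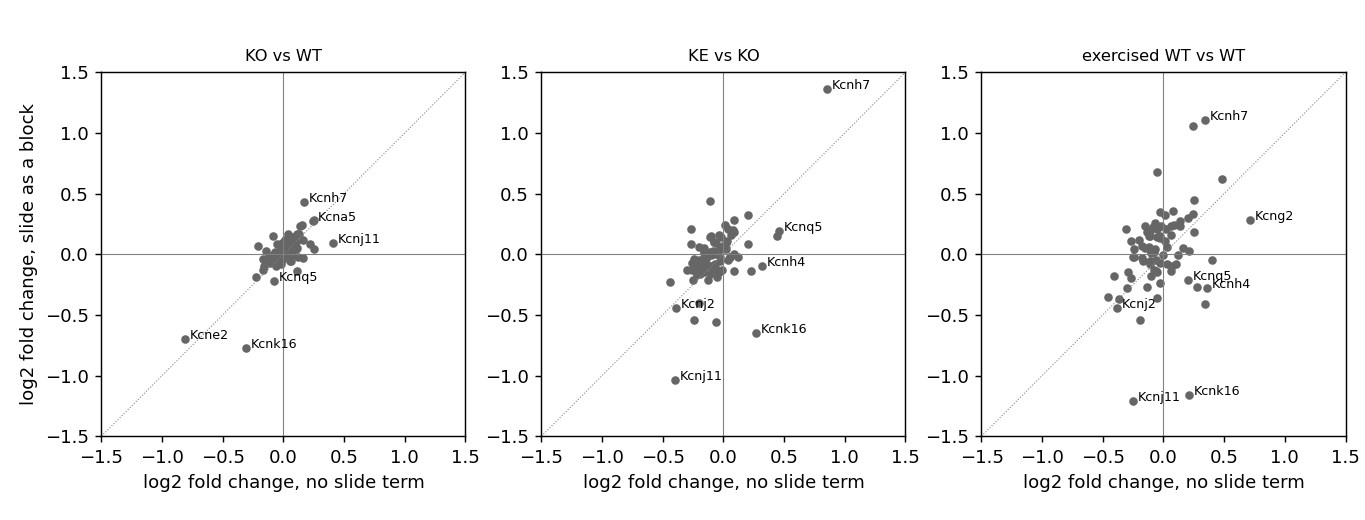
Log2 differences of the 81 tested Kcn genes without a slide term (horizontal) and with it (vertical), for KO against WT, KE against KO and exercised WT against WT. The slide term turned the sign of 25, 28 and 37 of the 81 genes.

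Of the arrays left out in turn, KO replicate 3 alone changed the number of Kcn genes at an adjusted p under 0.05 in limma. Without it, swimming and slide coincide fully, and 15 Kcn genes passed between KE and KO, 12 between exercised WT and WT and 11 between KE and WT. Of all tested genes, 21.1%, 16.0% and 19.0% did, against 18.5%, 14.8% and 13.6% of the Kcn genes. Among the genes called without it in all these comparisons were Kcng2, Kcnh4, Kcnq5 and Kcnd1, an A-type channel, upward, and Kcnk3, the leak channel TASK-1, downward. Kcnd1 and Kcnk3 are named here because of these calls, and 1 of the 3 Kcnd1 probes was well above background on 1 WT, 1 KO, 3 exercised WT and 3 KE arrays. On KO replicate 3 itself, the Kcn genes lay a median of -0.10 from the mean of KO replicates 1 and 2, against -0.06 for all genes, and 11.1% of them differed by at least 0.5, where 11.9% of all genes did.

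Within slide 2, KE and exercised WT can be compared with no slide between them. Here 6 Kcn genes were lower and 4 higher in KE, against a background of 3.97% and 2.79%. Kcnv1, another silent subunit, had 6.67, 6.58 and 6.86 in exercised WT and 6.16, 6.36 and 6.38 in KE. The groups did not overlap, and the difference was -0.40 ± 0.11 (SE, adjusted p = 0.586 in limma). Without overlap, 12.3% of Kcn genes were lower and 11.1% higher in KE, against 9.26% and 9.84% of all genes. Both tested Kcnv1 probes gave the same direction, -0.52 and -0.28, but only 1 of them was well above background on all 12 arrays. In the resting mice Kcnv1 had 6.32, 6.45 and 6.60 in WT and 6.55, 6.70 and 6.43 in KO, which overlap.

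The other genes of this comparison had differences of up to 0.75. Kcnn2 (SK2, a small calcium-activated channel) differed by -0.23, Kcnab3 (a cytoplasmic beta subunit) by -0.24 and Kcnj3 by -0.30. Kcnu1, a relative of the BK pore known from sperm, differed by 0.16, Kcna4, which carries fast A-type current, by 0.22, and Kcnk10 by 0.23. Kcnh3, an ELK-type channel of the forebrain, differed by -0.75, which rested on exercised WT replicate 3 and was -0.29 without it. That array had 10.39, against 8.66 to 9.34 on the other 11. It was also the highest for the summed signal of 9 striatal markers, 24872 against 17714 to 20060 elsewhere, and 7 of the 9, Adora2a at 8.06 and Drd1 at 9.63 among them, were highest there. Drd2 (5.81) and Tac1 (13.39), the brightest of the list, were not. The summed signal of the 5 tested cortical and hippocampal markers was highest there too, 3683 against 1936 to 3197, with Tbr1 (10.84) and Lamp5 (10.05) at their highest and the other 3 not. The part of these in the Kcnh3 value was not tested.

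Without the slide term, Kcnh7 was the only Kcn gene past the study's screening criterion (a change of 2-fold or more, up or down, and an unadjusted p no higher than 0.05), and passed it in KE against WT alone. It codes for ERG3, a channel of the same subfamily as Kcnh2. Of all genes, 1.65% met the criterion in that comparison, 0.175% in KO against WT, 0.651% in KE against KO, 1.22% in exercised WT against WT, 0.186% in KE against exercised WT and 0.52% in the interaction. Its probe, A_52_P408230 at chr2:62625189-62625248 (mm9, minus strand), had 4.39, 3.90 and 3.53 in WT, 4.11, 4.63 and 3.60 in KO, 4.37, 4.39 and 4.09 in exercised WT, and 5.11, 4.96 and 4.83 in KE. All KE arrays lay above all others. The difference was 1.02 ± 0.26 (SE, adjusted p = 0.071 in limma) against WT, 0.85 (0.159) against KO, or 1.36 with the slide term, and 0.68 (0.733) against exercised WT. These levels are near the limit of the array: the probe was well above background on 1 WT, 1 KO, 3 exercised WT and 3 KE arrays, so it was tested only through the mice that swam, and the lowest signal so flagged was 3.67 to 4.52 per array. With the slide term the difference from WT was 1.79. In that fit the slide term rests on KO replicate 3, which read 3.60, below its lowest signal so flagged, 4.15. The values with the slide term against WT and KO are therefore not exact. After normexp background correction these 3 differences were 0.35, 0.23 and 0.22, and with no filter on dim probes KE and KO differed by -0.01.

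In KE against WT, which joins both changes, 12 Kcn genes (14.8%) were lower and 5 (6.17%) higher, against 16.7% and 11.4% of all genes. Fewer were lower or higher with the slide term, as counted above. Without overlap of the groups, 28.4% of Kcn genes were lower and 8.64% higher, against 26.9% and 15.1% of all genes. Besides Kcnh7, tested only through mice that swam, Kcnj2 (-0.41, or -0.47 with the slide term) kept its direction with no overlap of the groups. Other genes did so too, Kcnq3 (-0.24, or -0.22) among them. The Kcnj2 value came mostly from its dimmer probe, tested only through the controls, at -0.66 against -0.16 at the other. Kcnab2, a beta subunit of Kcna channels, differed by -0.15, and by -0.46 with the slide term. Kcnq5 differed by 0.38, and by -0.04 with the slide term, where its upstream, RefSeq and dim probes gave 0.34, 0.03 and -0.48, so the turn in sign rests on the dim probe.

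**Figure D4:**
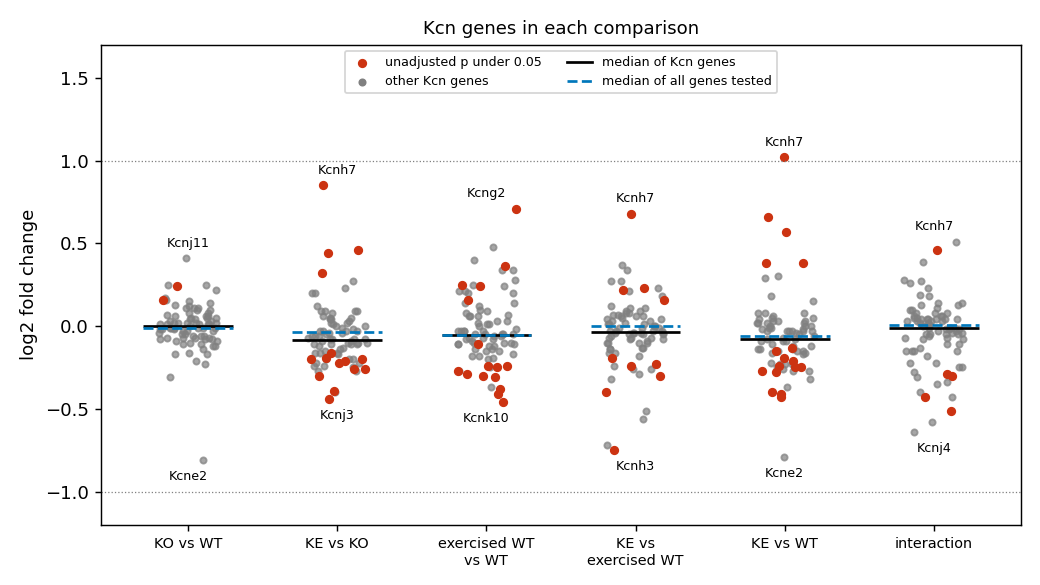
Log2 differences of the 81 tested Kcn genes in each comparison, with 1 point per gene (red for an unadjusted p under 0.05), a black line at their median and a dashed line at the median of all tested genes. Kcnh7 in KE against WT, at 1.02, is the only point beyond the dotted lines that mark a 2-fold change.

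The interaction asks whether swimming went with another difference in knockout than in wild-type mice, and it can be formed within slides. It had an unadjusted p under 0.05 for 1 gene upward and 4 downward, against 3.78% and 4.12% of all genes. For Kcna5 the difference with swimming was 0.24 in wild-type and -0.20 in knockout mice (0.33 and -0.14 with the slide term), which gave an interaction of -0.43 (adjusted p = 0.495 in limma; -0.46 with the slide term). The arrays had 9.56, 9.65 and 9.41 in exercised WT and 9.40, 9.39 and 9.25 in KE. Kcnv1 gave -0.51 (-0.57 with the slide term), Kcnk10 0.46 (0.42), Kcnk2 -0.29 (-0.26) and Kcnn2 -0.30 (-0.33). All 13 inward rectifiers had a negative interaction without the slide term (median -0.11), and 9 of 13 with it (median -0.067), against 48.1% and 50.6% of all genes (medians 0.007 and -0.002). None of the 13 had an unadjusted p under 0.05 without the slide term, and 2 did with it. Kcnq5 gave 0.26 without the slide term and 0.40 with it (adjusted p = 0.227). By probe the latter was 0.66 at the upstream probe, 0.04 at the RefSeq probe and 0.50 at the dim probe, which was tested only through WT and lay at background in KO.

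**Figure D5:**
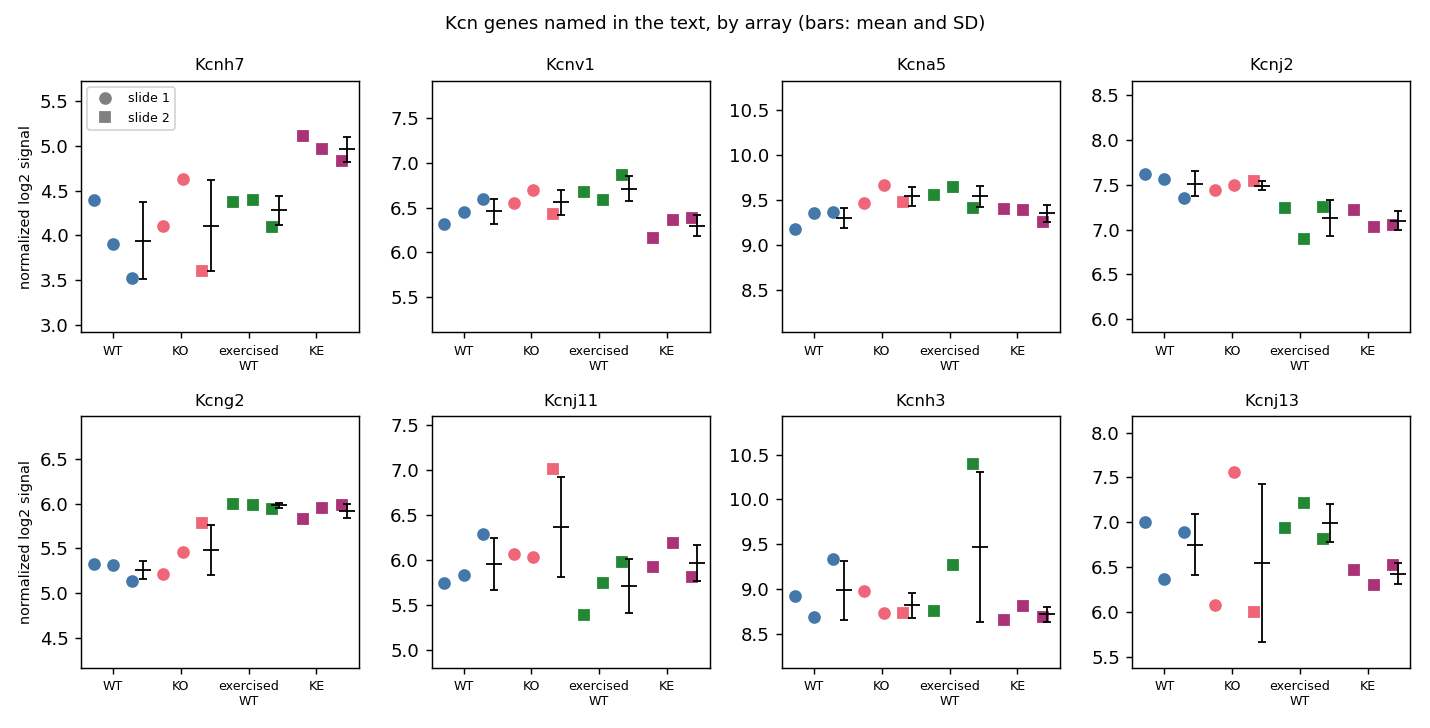
Normalized log2 signal of Kcnh7, Kcnv1, Kcna5, Kcnj2, Kcng2, Kcnj11, Kcnh3 and Kcnj13 on each array, with circles for slide 1, squares for slide 2 and bars for the group mean ± SD (n = 3). Kcng2 on KO replicate 3 reads 5.78, nearer the mice that swam, and Kcnh3 is high on 1 array of exercised WT.

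Several genes were singled out after their values were seen, because 1 array or 1 probe stood apart. Kcnj11, the pore of the ATP-sensitive channel, was 7.01 on KO replicate 3 and 5.39 to 6.29 elsewhere. This came from its dim probe, at 6.66 there and 3.57 to 5.15 elsewhere, while its other probe ran from 7.10 to 7.47. With the slide term, where this array stands for KO, Kcnj11 differed by -1.04 between KE and KO. Kcnj13, a channel of the choroid plexus, was 7.56 on KO replicate 2, the array with the highest summed signal of 7 choroid plexus markers, 6708 against 4392 to 5786 elsewhere. That list holds Kcnj13 itself, and Clic6 was the brightest of its genes. Only 4 of the 7, Kcnj13 included, were highest on that array. Ttr, the transthyretin gene, was 7.37 there and 8.65 on exercised WT replicate 2, Aqp1 was 4.82 there and 5.84 on KE replicate 1, and Enpp2 was at its lowest there, 8.66. Kcne2, an auxiliary subunit also found in choroid plexus, ran from 4.18 to 6.38, was well above background on 10 of 12 arrays and had the lowest difference between KO and WT, -0.81. The part of these markers in either gene was not tested. Kcnk16, a tandem-pore channel known from the pancreas, was 4.89 on KO replicate 3 and 3.35 and 3.67 on the other KO arrays, and its probe was tested through exercised WT, where 3 of 3 arrays had it well above background, against 1 in each other group. Kcnj10, the inward rectifier of astrocytes, stayed between 14.86 and 15.03.

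Genes that work with these channels were counted in the same way. Of 18 channel partners (anchoring proteins, accessory subunits and the sulfonylurea receptors), 16 were tested, with Lrrc26 and Lrrc52 not detected. Between KE and KO, 3 were higher and 1 was lower at an unadjusted p under 0.05, against 7.4% and 12.3% of all genes, and with the slide term 4 were higher and 0 lower (4.13% and 3.7%). Between exercised WT and WT 1 was higher and 1 lower (9.85% and 15.9%). Without the slide term there were 0 in either direction in KO against WT and in KE against exercised WT. With it, 1 was lower in KO against WT (Cntnap2), against 2.41% of all genes. Cntnap2, which clusters Kcna channels beside the node of Ranvier, differed by 0.28 between KE and KO and by 0.03 with the slide term. Abcc8, the sulfonylurea receptor that joins Kcnj11, differed by 0.12 and 0.16. Of 11 genes of potassium transport, Atp1b2, a sodium pump subunit, differed most clearly between KE and WT, by 0.48, and by 0.04 with the slide term.

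The 4 Hcn genes, which code for the hyperpolarization-activated cation channels that oppose many of these currents, were all tested. Hcn2 ran from 12.74 to 12.91 on slide 1 and from 13.11 to 13.42 on slide 2, and KE and WT differed by 0.45, or 0.13 with the slide term. Hcn4 differed by -0.60 (-0.29). None of the partner, Hcn or transport genes had an adjusted p under 0.05 in limma in any comparison.

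For 35 Kcn genes with several tested probes, all probes had the same sign in 16 genes in KO against WT, 22 in KE against KO, and 18 in each of the other group comparisons. The widest gap between probes of a gene was that of Kcnq5 in KE against WT, 2.11 on the log2 scale.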

How the data were processed

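The authors scanned the arrays and extracted intensities with Agilent Feature Extraction 10.7.1.1. The deposited intensity is the background-subtracted processed signal of each spot. The authors also deposited a log2 table, quantile normalized in GeneSpring, used here as an alternative, and 4 tables of their own comparisons with fold changes and p-values, which were not used, nor were 24 columns of per-sample values in them. Log2 processed signals were quantile normalized without control and outlier spots, and replicate spots and then the tested probes of a symbol were averaged. In limma 3.58.1 (R 4.3.3), 4 group means were fitted over 18266 genes with Benjamini-Hochberg adjustment. The script was tested on simulated data. Alternatives were another scaling, background, filter or probe rule, the methods' t-test, slide and replicate blocks, and leaving out each array. The members and lists were chosen with earlier results of these data known. Genes were named if past the screening criterion, or as the 5 smallest p-values under 0.05 in each direction, if their probes disagreed past the criterion, or if their groups did not overlap and the slide term kept them, with Kcnq5 always named. The number of arrays limits the precision. Some items are not reported here.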

Additional observations from a re-analysis of the deposited data

Results flagged for a closer look

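The Kcna5 differences ran in opposite directions in the 2 genotypes, with no overlap between the groups compared. With swimming it was 0.24 in wild-type and -0.20 in knockout mice, an interaction of -0.43 with an adjusted p of 0.495 in limma. By genotype it was 0.24 at rest and -0.19 after swimming, which is the same interaction of -0.43. With the slide term it was -0.46 (adjusted p = 0.309). Kcna5 had 1 probe, which shared a run of 18 bases on the same strand with a probe of Rap2c. Whether it also bound that transcript was not tested. The highest KE array read 9.40 and the lowest exercised WT array 9.41.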

How the results depend on the processing

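Leaving out 1 array, the number of Kcn genes past the screening criterion was 0 to 1 in KO against WT, 0 to 1 in KE against KO, 0 to 0 in exercised WT against WT, 0 to 1 in KE against exercised WT, 0 to 2 in KE against WT and 0 to 0 in the interaction. At an unadjusted p under 0.05 it was 1 to 5, 9 to 25, 11 to 21, 3 to 12, 14 to 23 and 4 to 12 in the same order. At an adjusted p under 0.05 in limma it was 0 to 0, 0 to 15, 0 to 12, 0 to 0, 0 to 11 and 0 to 0, with the upper ends without KO replicate 3, which leaves slide 2 without a control array.

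With the slide term, 2 genes passed the screening criterion in KE against KO, in exercised WT against WT and in KE against WT, and 5, 9, 10, 6 and 12 had an unadjusted p under 0.05 in KO against WT, KE against KO, exercised WT against WT, KE against WT and the interaction. With 75th percentile scaling and the slide term, a setting chosen after seeing the data, the criterion counts were 1, 3 and 2 and the others 5 (KO against WT), 9 (KE against KO), 6 (KE against WT) and 10 (interaction). With normexp background and the slide term, also chosen after seeing the data, the counts were 5, 8, 17, 7 and 14 in KO against WT, KE against KO, KE against exercised WT, KE against WT and the interaction, and 0 past the criterion in KE against WT, as with normexp alone and with probes detected on all 12 arrays. With the brightest probe per gene, 4 genes had an unadjusted p under 0.05 in KO against WT, and 1, 1 and 2 passed the criterion in KE against KO, exercised WT against WT and KE against WT, Kcnq5 among them each time. With each probe on its own, those criterion counts were 1, 1 and 2 probes, and 4 probes in KO against WT, 30 in exercised WT against WT, 29 in KE against WT and 11 in the interaction had an unadjusted p under 0.05. With no filter on dim probes, 1 gene passed the criterion in KO against WT and 1 in the interaction, and 4 had an unadjusted p under 0.05 in KE against exercised WT. At an unadjusted p under 0.05 with no fold cut, the methods' t-test gave 8 genes in KE against KO (against 12.2% of all genes). After Benjamini-Hochberg adjustment it gave 2 in exercised WT against WT (against 1.13% of all genes) and 4 in KE against WT (against 8.12%). At the full screening criterion it gave only Kcnh7, in KE against WT.

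Single genes turned direction as follows, and the cause was not tested. Kcnq5 in KO against WT turned to 0.04 with normexp, 0.07 with no filter, 0.12 with probes detected on all arrays, 0.28 with the brightest probe and 0.01 without KO replicate 2. Kcnq5 turned with the slide term to -0.21 in exercised WT against WT (-0.22 with 75th percentile scaling, -0.06 with normexp) and -0.04 in KE against WT, and with no filter to -0.22 in KE against exercised WT and -0.28 in the interaction. Its upstream probe turned with the slide term to -0.15 in KO against WT and to -0.17 in exercised WT against WT. Leaving out 1 array, that probe ranged from -0.15 (without KO replicate 3) to 0.53 in KO against WT, and from -0.02 (without KO replicate 2) to 0.66 in the interaction. Kcnh7 in KE against KO was -0.01 with no filter. Kcnh4 turned with the slide term to -0.10 in KE against KO (-0.05 with 75th percentile scaling, -0.03 with normexp) and to -0.28 in exercised WT against WT (-0.26 and -0.23). Kcnn4 was 0.00 in KE against KO with normexp and the slide term, and 0.32 in exercised WT against WT with no filter. Kcnj2 in exercised WT against WT was 0.00 with probes detected on all arrays and with the brightest probe, and Kcnh2 was 0.01 with normexp and the slide term.

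The labels' replicate numbers did not pair the arrays: same-numbered arrays of 2 groups had deviations that correlated from -0.18 to 0.24. With the replicate block, 3, 18, 15, 9, 19 and 6 genes had an unadjusted p under 0.05, and 0 had an adjusted p under 0.05 in limma. Of the counts under alternatives that kept all arrays, 173 stayed within 1.5 times the reported count and 40 did not. Of the counts that left out an array, 189 stayed within it and 27 did not. Among the genes named, signals near background limit at least Kcnh7, Kcnk16, Kcne2 and the dim probes of Kcnq5, Kcnj2, Kcnj11, Kcng2, Kcnd1 and Kcnv1.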
